A study of Mus musculus with 12 samples.

Results

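The hair follicle stem cell and upper follicle genes described here are Sox9, Krt15, Cd34, Lgr5, Lgr6, Lrig1, Plet1, Lhx2, Runx1 and Nfatc1, 10 of the 47643 genes in the deposited tables. They were chosen by name for where they are known to be expressed in the follicle, with earlier results of these data known. All 10 were found and passed the filter on low counts in every comparison. They were read in 4 groups of 3 RNA-seq libraries from C57BL/6 mice aged 10 weeks: whole skin of Adam17 KO mice, whole skin of wild type (WT) mice, epidermis of Adam17 KO mice and epidermis of WT mice. The knockout is conditional: Sox9-Cre was crossed to Adam17 fl/fl, so that the Cre recombinase is driven by Sox9, itself one of the 10 genes. The labels do not say how the driver was built, whether the WT mice carried Cre or floxed alleles, or whether each library came from its own mouse, so every p-value measures the spread between these libraries only. ADAM17 is a membrane metalloprotease that sheds ligands of the EGF receptor and TNF from the cell surface.

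The hair follicle is renewed from stem cells in a niche called the bulge, which rest through most of the hair cycle and are activated when a new hair grows. Krt15, a keratin, and Cd34, a surface glycoprotein, mark the bulge, and Sox9, Lhx2, Nfatc1 and Runx1 encode transcription factors that hold bulge cells in their state or release them from rest. Lgr5 and Lgr6 are receptors for R-spondins, which strengthen Wnt signalling, and are known for the lower bulge and the isthmus above it. Lrig1, a membrane protein that restrains the EGF receptor, and Plet1, a lipid-anchored surface protein, mark the upper follicle, which lies between the bulge and the surface. Several of these genes are also used by other cells: Cd34 by endothelium, fibroblasts and mast cells, and Runx1 by leukocytes.

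Levels are given in TMM-scaled CPM, expected counts relative to a library's scaled total, and levels of different genes are compared only in the deposited TPM, which divide by transcript length. Libraries held between 12208522 and 16743144 expected counts, so that 3 counts were worth between 0.179 and 0.246 CPM, and the rarest value among the 10 genes was 30 expected counts, for Lgr5. These limits cover counting error only. Adam17 itself stood at 41.6, 52.1 and 52.5 CPM in Skin Adam17 KO, against 72.3, 96.3 and 94.1 CPM in Skin WT, and at 48.4, 58.1 and 47.3 CPM in Epidermis Adam17 KO, against 78.9, 86.4 and 79.5 CPM in Epidermis WT. Its fold changes were −0.75 in skin (log2, adjusted p = 0.00797) and −0.66 in epidermis (adjusted p = 0.00213), from the quasi-likelihood test of edgeR, with p-values adjusted by the Benjamini-Hochberg method across the genes of each comparison, and the same holds for every adjusted p below. The count covers the whole gene and not the deleted part, and the gene Iah1 overlaps it on the other strand.

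Some libraries stood apart. Reads of 4 Y-linked genes were present in 2 of 3 Skin Adam17 KO libraries and 3 of 3 Epidermis Adam17 KO libraries and at 0 in the 6 WT libraries. Xist, a gene of female cells, had 660 to 3222 reads in the WT libraries. It had 0 in replicate 1 of both KO groups. Skin Adam17 KO replicate 3 and Epidermis Adam17 KO replicates 2 and 3 held reads of both kinds. The presence of Y-linked reads therefore goes fully with genotype in epidermis and partly in skin. Sex cannot be told apart from genotype in epidermis, nor fully in skin. A covariate of Y-linked reads, at 0 in every WT library, shares this limit. Skin Adam17 KO replicate 1 held 5138 CPM of growing follicle genes, against 394 and 1679 CPM in the other two Skin Adam17 KO libraries and 440 to 762 CPM in Skin WT. Skin WT replicate 1 held 61870 CPM of skeletal muscle genes, against 7630 and 19590 CPM in the other Skin WT libraries. Without either of these skin libraries only Lrig1, among the members called in skin, lost its call, and values without the libraries that hold Y-linked reads stand beside the results they change.

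Krt15 lies at chr11:100131758-100135928 and Sox9 at chr11:112782224-112787760 of GRCm38, the assembly also called mm10. Cd34 is at chr1:194938819-194961279, Lgr6 at chr1:134983301-135105276 and Lgr5 at chr10:115450311-115587780. Plet1 is at chr9:50494525-50505482, Lrig1 at chr6:94604529-94700158, Lhx2 at chr2:38339281-38369733 and Runx1 at chr16:92601466-92826149. All 10 genes are protein-coding in GENCODE. Genes on the opposite strand overlap Lrig1 (Slc25a26, with reads equal to 9.46% of those of Lrig1) and Plet1 (Plet1os, 0.612%). The strand setting of the counting is not given in the sources used here, so reads from such pairs may not be told apart.

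RefSeq promoter sequences of build GRCm38.p6, each from 250 bases before the start of transcription to 50 after it, were matched for 6 of the 10 genes, and 4 are shown: Cd34 and Lgr6, which were lower in Adam17 KO in both tissues, and Plet1 and Runx1, which were higher. Capitals mark matches, on either strand, to 4 short motifs searched by their letters: ATTGT for SOX factors, TAATTA for LIM-homeodomain factors, TGTGGT for RUNX factors and GGAAA for NFAT factors. Positions are counted from the start of transcription. The windows are chr1:194938571-194938870 (plus strand) for Cd34, chr1:135105227-135105526 (minus strand) for Lgr6, chr9:50494275-50494574 (plus strand) for Plet1 and chr16:92826025-92826324 (minus strand) for the first of 2 Runx1 promoters.
Cd34: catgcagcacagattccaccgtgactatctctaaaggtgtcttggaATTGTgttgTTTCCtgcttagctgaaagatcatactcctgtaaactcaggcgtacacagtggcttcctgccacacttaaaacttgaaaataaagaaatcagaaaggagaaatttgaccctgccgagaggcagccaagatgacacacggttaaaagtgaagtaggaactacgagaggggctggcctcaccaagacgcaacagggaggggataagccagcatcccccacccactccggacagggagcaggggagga
Lgr6: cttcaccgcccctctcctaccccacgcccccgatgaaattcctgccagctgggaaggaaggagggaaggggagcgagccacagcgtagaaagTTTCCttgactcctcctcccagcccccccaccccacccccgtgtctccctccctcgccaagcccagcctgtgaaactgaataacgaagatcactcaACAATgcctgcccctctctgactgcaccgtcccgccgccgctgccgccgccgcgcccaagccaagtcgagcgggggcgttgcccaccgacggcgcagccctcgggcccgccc
Plet1: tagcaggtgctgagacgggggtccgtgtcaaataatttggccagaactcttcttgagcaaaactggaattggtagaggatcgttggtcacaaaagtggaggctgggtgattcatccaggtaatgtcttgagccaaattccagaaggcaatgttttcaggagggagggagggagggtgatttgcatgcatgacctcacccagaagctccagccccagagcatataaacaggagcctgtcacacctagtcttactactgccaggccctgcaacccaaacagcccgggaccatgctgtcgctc
Runx1: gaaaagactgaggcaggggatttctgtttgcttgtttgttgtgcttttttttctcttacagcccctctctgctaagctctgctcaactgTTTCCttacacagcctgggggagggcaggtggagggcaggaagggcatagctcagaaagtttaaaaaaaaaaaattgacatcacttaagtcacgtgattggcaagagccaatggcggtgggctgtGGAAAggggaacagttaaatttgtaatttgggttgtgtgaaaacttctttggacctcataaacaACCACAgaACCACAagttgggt
The Cd34 window holds a SOX match at position −204 and an NFAT match at −195, and the Lgr6 window an NFAT match at −158 and a SOX match at −62. The Runx1 window holds NFAT matches at −161 and −36 and a pair of RUNX matches, written ACCACA on this strand, at 29 and 37. None of the 4 motifs is in the Plet1 window. Among 32851 mouse promoters of this length, 31.0% hold the SOX letters, 5.29% the LIM-homeodomain letters, 16.8% the RUNX letters and 61.3% the NFAT letters, so a match is a description of these letters and not a binding site.

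The first comparison asks what loss of Adam17 from Sox9-expressing cells and their descendants does to these genes, in whole skin and in epidermis. In both tissues Krt15, Cd34, Lgr6 and Lhx2 were lower in Adam17 KO and Plet1 and Runx1 were higher. Sox9, Nfatc1 and Lgr5 passed the test in neither tissue, and Lrig1 was called higher in skin and was not called in epidermis. The bulge keratin Krt15 fell 7.11-fold in skin and 10.8-fold in epidermis, and the upper follicle marker Plet1 rose 7.27-fold in skin and 2.86-fold in epidermis. In bulk tissue, fewer cells of a type and less RNA per cell cannot be told apart.

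In whole skin 3 of the 10 genes were higher and 4 lower in Adam17 KO, where 22.2% of all 14906 genes tested were called higher and 23.3% lower. No overlap between KO and WT ranges was seen for 7 of the 10, against 58.8% of all genes tested. In epidermis 2 of the 10 were higher and 4 lower, where 26.2% of 13632 genes tested were called higher and 25.3% lower, and 6 did not overlap, against 62.2% of all. The median log2 fold change of the 10 genes was −0.22 in skin and −0.01 in epidermis, beside 0.00 over all genes tested in each. When skin libraries were scaled to 10 epithelial genes in place of TMM, the median of all genes moved to −0.35 and calls split into 1665 higher and 4955 lower, beside 3310 and 3470 with TMM. With TMM, 2 of these 10 genes were themselves called higher in Skin Adam17 KO, and 3 higher and 1 lower in Epidermis Adam17 KO. The epithelial scale is thus not free of genotype, here and in the results below.

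**Figure D1:**
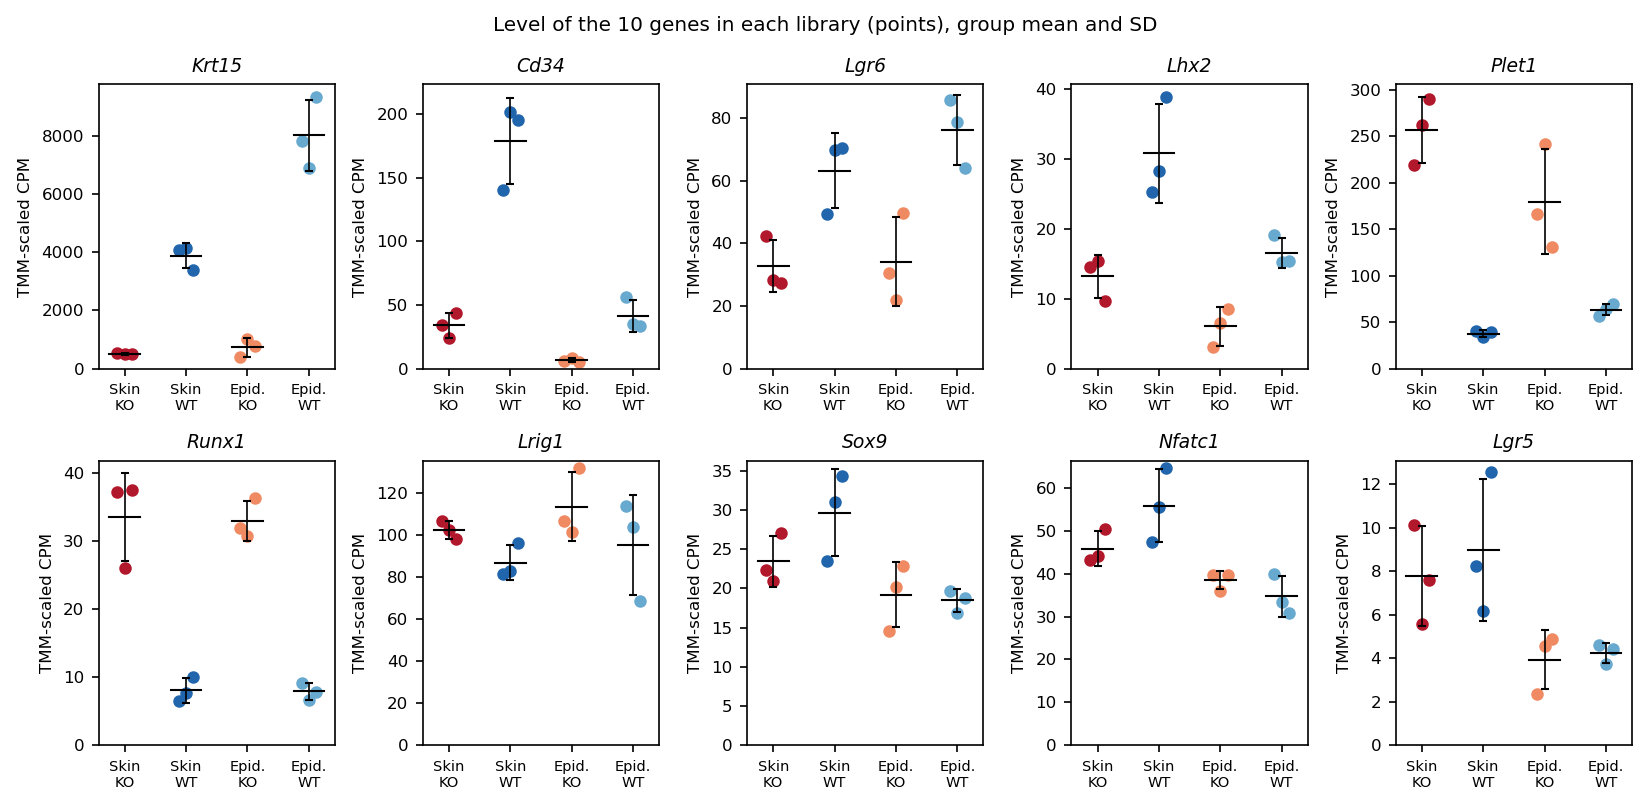
TMM-scaled CPM (vertical axes, starting at 0) of each of the 10 genes in each library (points), with the group mean (wide line) and SD (bars), for Skin Adam17 KO, Skin WT, Epidermis Adam17 KO and Epidermis WT from left to right. Krt15, Cd34, Lgr6 and Lhx2 are lower, and Plet1 and Runx1 higher, in every KO library than in every WT library of the same tissue.

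Krt15, the keratin of bulge and basal cells, had 547, 491 and 495 CPM in Skin Adam17 KO, against 4073, 4158 and 3380 CPM in Skin WT. In epidermis it had 382, 1031 and 786 CPM in Epidermis Adam17 KO, against 7822, 6886 and 9312 CPM in Epidermis WT. The lowest WT library lay far above the highest KO library in each tissue, and the KO libraries varied among themselves far more in epidermis than in skin. The log2 fold change was −2.83 in skin (SE 0.181, adjusted p = 0.000113) and −3.43 in epidermis (SE 0.358, adjusted p = 0.000145). Set against Krt14, a keratin of basal keratinocytes that was itself higher in Skin Adam17 KO, there were 0.0544 ± 0.0114 Krt15 reads per Krt14 read in Skin Adam17 KO, against 1.06 ± 0.0243 in Skin WT, and 0.117 ± 0.0705 in Epidermis Adam17 KO, against 0.991 ± 0.0273 in Epidermis WT (SD, n = 3 each). Of 10 basal keratinocyte genes, 1 was higher and 2 lower in Skin Adam17 KO, with Krt14 at 1.49 on the log2 scale (adjusted p = 0.00232) and Dst, a hemidesmosome linker, at −2.02 (adjusted p = 0.0025). In Epidermis Adam17 KO none of the 10 was higher and 7 were lower, among them the laminin chain Lamb3 (−2.06, adjusted p = 0.000212). Krt14 itself was not called there (−0.23, adjusted p = 0.394).

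Cd34, the surface glycoprotein of bulge cells, had 34.1, 24.1 and 43.4 CPM in Skin Adam17 KO, against 140, 201 and 196 CPM in Skin WT. Its level was 5.85, 8.29 and 5.08 CPM in Epidermis Adam17 KO, against 55.9, 35.2 and 33.3 CPM in Epidermis WT. The groups were well separated in both tissues, with log2 fold changes of −2.31 (SE 0.245, adjusted p = 0.000672) in skin and −2.68 (SE 0.263, adjusted p = 0.00011) in epidermis. Summed markers of other cells that carry Cd34 were lower in Skin Adam17 KO and higher in Epidermis Adam17 KO, each against WT. The summed level of 11 endothelial genes was 51.7 to 68.5 CPM in Skin Adam17 KO, against 163 to 174 CPM in Skin WT, with 9 of 11 called lower. In epidermis that sum was 7.51 to 18.5 CPM in Epidermis Adam17 KO, against 2.83 to 3.89 CPM in Epidermis WT, where Emcn and Lyve1 had no read in any library, and 2 of the 4 genes tested were called higher in Epidermis Adam17 KO. The sum of 9 fibroblast genes was 784 to 1731 CPM in Skin Adam17 KO, against 2123 to 2895 CPM in Skin WT, and 95.7 to 157 CPM in Epidermis Adam17 KO, against 18.0 to 27.6 CPM in Epidermis WT, with 5 of 9 called lower in skin and 8 of the 8 tested called higher in epidermis. The 6 mast cell genes summed to 42.6 to 83.2 CPM in Skin Adam17 KO, against 96.5 to 174 CPM in Skin WT, and to 4.27 to 13.1 CPM in Epidermis Adam17 KO, against 0.777 to 1.59 CPM in Epidermis WT, where Tpsb2 and Fcer1a were at 0. Of these, 3 were called lower and 1 higher in skin, and the 1 tested in epidermis was called higher. The part of these cells in the fall of Cd34 was not tested in either tissue. Per read of the endothelial gene Pecam1 there were 2.27 ± 0.833 reads of Cd34 in Epidermis Adam17 KO and 63.8 ± 6.85 in Epidermis WT, and 2.33 ± 0.735 in Skin Adam17 KO and 4.66 ± 1.11 in Skin WT (SD, n = 3 each). Pecam1 averaged only 0.644 CPM in Epidermis WT and 3.15 CPM in Epidermis Adam17 KO (log2 fold change 2.29). The epidermal ratios thus rest on few Pecam1 reads, and differ in part because Pecam1 was higher in Epidermis Adam17 KO.

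Of the R-spondin receptors Lgr6 was called lower in both tissues and Lgr5 in neither, and the difference between these genes was not tested. Lgr6, known from the isthmus, had 42.2, 28.4 and 27.5 CPM in Skin Adam17 KO, against 49.4, 69.8 and 70.3 CPM in Skin WT. In epidermis Lgr6 had 30.5, 22.0 and 49.8 CPM in Epidermis Adam17 KO, against 85.9, 78.7 and 64.1 CPM in Epidermis WT. All KO libraries were below all WT libraries, with −0.86 on the log2 scale in skin (SE 0.216, adjusted p = 0.0161) and −1.14 in epidermis (SE 0.265, adjusted p = 0.00672). The skin call ended without Skin WT replicate 3 (adjusted p = 0.0551), without Skin Adam17 KO replicate 2 (0.0584) or 3 (0.0656), and without both Skin Adam17 KO libraries with Y-linked reads (0.0765). In epidermis it ended when the share of Y-linked reads was a covariate (adjusted p = 0.0627). Lgr5, known from the lower bulge and hair germ, was the least abundant of the 10 in 3 of the 4 groups by TPM. It had 10.2, 5.57 and 7.61 CPM in Skin Adam17 KO, against 8.26, 6.16 and 12.6 CPM in Skin WT. Its epidermal levels were 2.37, 4.54 and 4.87 CPM in Epidermis Adam17 KO and 4.59, 3.72 and 4.40 CPM in Epidermis WT. These ranges overlapped, and the 95% intervals of the log2 fold change, −0.87 to 0.64 in skin (adjusted p = 0.79) and −0.77 to 0.60 in epidermis (adjusted p = 0.827), leave room for changes in either direction.

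Among the transcription factors Lhx2 was lower and Runx1 higher in Adam17 KO, while the main genotype test called Sox9 and Nfatc1 in neither tissue. Lhx2, a LIM-homeodomain factor that keeps bulge cells at rest, had 14.5, 15.4 and 9.70 CPM in Skin Adam17 KO, against 25.3, 28.2 and 38.9 CPM in Skin WT. Its epidermal level was 3.08, 6.53 and 8.55 CPM in Epidermis Adam17 KO, against 19.1, 15.3 and 15.4 CPM in Epidermis WT. The groups stood apart in both tissues, with log2 fold changes of −1.13 (SE 0.234, adjusted p = 0.00777) in skin and −1.43 (SE 0.315, adjusted p = 0.00541) in epidermis. With the share of Y-linked reads as a covariate neither call held (adjusted p = 0.0582 in skin and 0.133 in epidermis, where the fold change was −0.76), and in skin the call also ended without the Skin Adam17 KO libraries that hold Y-linked reads (−0.89, adjusted p = 0.116).

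Runx1, a Runt-domain factor that takes part in the activation of follicle stem cells and in blood cell formation, had 37.3, 26.1 and 37.5 CPM in Skin Adam17 KO, against 6.51, 7.63 and 10.1 CPM in Skin WT. In epidermis it had 31.9, 30.8 and 36.3 CPM in Epidermis Adam17 KO, against 9.18, 6.69 and 7.77 CPM in Epidermis WT. Levels and changes were much alike in the 2 tissues, with log2 fold changes of 2.15 (SE 0.221, adjusted p = 0.00059) in skin and 2.08 (SE 0.16, adjusted p = 3.22e-05) in epidermis. Of 11 leukocyte genes 10 were tested. In skin 2 were higher and 1 lower in Adam17 KO, and their sum was 181 to 300.2 CPM in Skin Adam17 KO, against 221 to 248.5 CPM in Skin WT. In epidermis 7 were higher and none lower, with a sum of 157 to 290 CPM in Epidermis Adam17 KO, against 75.2 to 90.8 CPM in Epidermis WT, and none of the 11 was at 0 in a whole group. Per read of the leukocyte gene Ptprc there were 1.72 ± 0.563 Runx1 reads in Skin Adam17 KO and 0.494 ± 0.0478 in Skin WT, and 1.22 ± 0.45 in Epidermis Adam17 KO and 1.42 ± 0.541 in Epidermis WT (SD, n = 3 each). In epidermis Ptprc was at 2.27 on the log2 scale, near Runx1, but the 10 leukocyte genes tested ran from 0.06 for Adgre1 to 2.77 for Itgax. Such a ratio therefore depends on the leukocyte gene chosen. The part of leukocytes in the change of Runx1 was not tested.

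Sox9, the factor whose gene drives the Cre, had 22.4, 20.9 and 27.1 CPM in Skin Adam17 KO, against 23.5, 31.1 and 34.4 CPM in Skin WT. It had 14.6, 20.2 and 22.8 CPM in Epidermis Adam17 KO and 19.7, 16.9 and 18.8 CPM in Epidermis WT. The ranges overlapped in both tissues, and the log2 fold changes of −0.25 (95% interval −0.66 to 0.17, adjusted p = 0.294) and 0.07 (−0.34 to 0.49, adjusted p = 0.752) were not called. Whether the driver allele alters the count of Sox9 was not tested. Nfatc1, on chromosome 18, which restrains the division of bulge cells, ranged from 43.1 to 50.5 CPM in Skin Adam17 KO and from 47.4 to 64.6 CPM in Skin WT, and from 36.1 to 39.8 CPM in Epidermis Adam17 KO and from 30.8 to 40.0 CPM in Epidermis WT. Its log2 fold changes were −0.19 (95% interval −0.53 to 0.14, adjusted p = 0.307) in skin and 0.16 (−0.13 to 0.46, adjusted p = 0.311) in epidermis. With the epithelial scaling both factors were called lower in skin, Sox9 at −0.58 (adjusted p = 0.0252) and Nfatc1 at −0.53 (adjusted p = 0.0208).

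Of the upper follicle pair, Plet1 had the larger change and Lrig1 differed little. Plet1 had 219, 262 and 290 CPM in Skin Adam17 KO, against 40.1, 33.8 and 39.1 CPM in Skin WT. In epidermis it had 167, 242 and 131 CPM in Epidermis Adam17 KO, against 56.8, 64.5 and 69.4 CPM in Epidermis WT. Every KO library lay well above every WT library of its tissue, with 2.86 on the log2 scale in skin (SE 0.157, adjusted p = 7.42e-05) and 1.52 in epidermis (SE 0.217, adjusted p = 0.000661). Lrig1 had 107, 102 and 98.2 CPM in Skin Adam17 KO, against 81.2, 82.7 and 96.2 CPM in Skin WT. The 2 nearest of these libraries were close, and the rise of 0.33 on the log2 scale (SE 0.112, adjusted p = 0.0454) lost its call with the replicate numbers as a block (adjusted p = 0.0997) and without the Skin Adam17 KO libraries that hold Y-linked reads (0.36, adjusted p = 0.33). It was −0.02 with the epithelial scaling (adjusted p = 0.937). In epidermis Lrig1 overlapped between the groups, at 101 to 132 CPM in Epidermis Adam17 KO and 68.5 to 114 CPM in Epidermis WT, with a log2 fold change of 0.26 (95% interval −0.18 to 0.71, adjusted p = 0.287). There were 2.52 ± 0.454 Plet1 reads per Lrig1 read in Skin Adam17 KO and 0.436 ± 0.0499 in Skin WT, and 1.65 ± 0.703 in Epidermis Adam17 KO and 0.711 ± 0.268 in Epidermis WT (SD, n = 3 each).

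**Figure D2:**
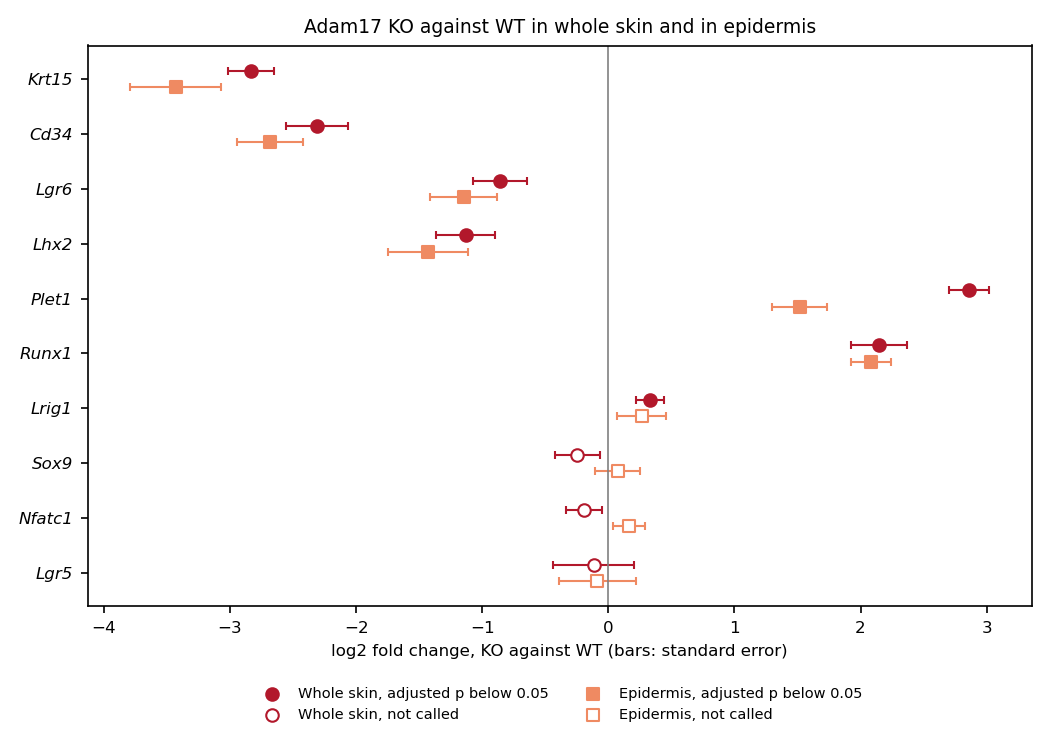
Log2 fold change of Adam17 KO against WT (horizontal axis, bars are the standard error) for each of the 10 genes in whole skin (circles) and epidermis (squares), filled where the adjusted p was below 0.05. Krt15 lies lowest, at −2.83 and −3.43, and Plet1 and Runx1 lie above 1.5 in both tissues.

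The size of the genotype effect was then compared between the tissues in 1 model of all 12 libraries, as the effect in epidermis minus the effect in skin. Plet1 was the 1 member called, at −1.27 on the log2 scale (SE 0.281, 95% interval −1.89 to −0.66, adjusted p = 0.013), so that its rise was smaller in epidermis. None of the 10 was called with a larger effect in epidermis. Over all 15394 genes tested, 10.1% were called higher and 6.36% lower. The call of Plet1 ended with the epithelial scaling (−0.997, adjusted p = 0.0574), under which the median of all genes was 0.32 and calls split into 2651 higher and 367 lower, beside 1560 and 979 with TMM. For the 5 other genes that changed in both tissues the intervals of the difference held 0, from −1.40 to 0.35 for Krt15, −1.12 to 0.53 for Cd34, −1.05 to 0.64 for Lgr6, −1.17 to 0.73 for Lhx2 and −0.60 to 0.62 for Runx1. It also held 0 for Lrig1 (−0.52 to 0.54), Sox9 (−0.19 to 0.98) and Lgr5 (−0.92 to 1.13). These intervals are wide, and do not show equal effects. For Nfatc1 the difference of 0.44 had an interval from 0.01 to 0.86 and was not called (adjusted p = 0.139), but was called with the epithelial scaling (0.67, adjusted p = 0.0267) and without Skin WT replicate 1 (0.54, adjusted p = 0.0468).

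Epidermis was next compared with whole skin within each genotype. In WT mice Krt15 and Plet1 were higher in epidermis, and Sox9, Cd34, Lgr5, Lhx2 and Nfatc1 were lower. That is 2 higher and 5 lower of 10, where 17.6% of 14596 genes tested were called higher and 25.3% lower. Cd34 differed most, at 41.5 ± 12.5 CPM in Epidermis WT and 179 ± 33.7 CPM in Skin WT (SD, n = 3 each), or −2.13 on the log2 scale (SE 0.242, adjusted p = 0.00046). Krt15 averaged 8007 ± 1223 CPM in Epidermis WT and 3870 ± 427 CPM in Skin WT (SD, n = 3 each), at 1.02 on the log2 scale (adjusted p = 0.00702). For Plet1 the means were 63.6 ± 6.34 CPM in Epidermis WT and 37.7 ± 3.40 CPM in Skin WT (SD, n = 3 each), at 0.73 (adjusted p = 0.00635). The falls were −1.11 for Lgr5 (adjusted p = 0.0192), −0.92 for Lhx2 (adjusted p = 0.00759), −0.71 for Nfatc1 (adjusted p = 0.0105) and −0.71 for Sox9 (adjusted p = 0.0127). Those of Lgr5 and Sox9 lost their call when single libraries were left out, among them Skin WT replicate 3 (adjusted p = 0.0697 for Lgr5 and 0.0537 for Sox9). Lgr6, Lrig1 and Runx1 were not called. With the epithelial scaling the median of all genes moved to −0.61, beside −0.07 with TMM, calls split into 481 higher and 7171 lower, beside 2563 and 3697, and the calls of Krt15 (adjusted p = 0.18) and Plet1 (0.51) ended.

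In Adam17 KO mice Cd34 was the 1 member that passed the test, at 6.41 ± 1.67 CPM in Epidermis Adam17 KO and 33.9 ± 9.66 CPM in Skin Adam17 KO (SD, n = 3 each), or −2.41 on the log2 scale (SE 0.269, adjusted p = 0.00224). None of the 10 was called higher, where 14.1% of 14117 genes tested were called higher and 15.9% lower. Lhx2 (−1.12, adjusted p = 0.0526), Lgr5 (−0.99, adjusted p = 0.0613) and Nfatc1 (−0.26, adjusted p = 0.0848) were lower in every epidermal library than in every skin library and missed the threshold. Krt15 averaged 733 ± 328 CPM in Epidermis Adam17 KO and 511 ± 31.2 CPM in Skin Adam17 KO (SD, n = 3 each), with an interval of the log2 fold change from −0.23 to 1.26. Plet1 averaged 180 ± 57.0 CPM in Epidermis Adam17 KO and 257 ± 35.95 CPM in Skin Adam17 KO (SD, n = 3 each), with an interval from −1.05 to 0.01. The count of members called is sensitive to the processing: it was 4 with DESeq2 and 6 with the epithelial scaling, under which the median of all genes was −0.31 and calls split into 627 higher and 5366 lower, beside 1989 and 2238.

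**Figure D3:**
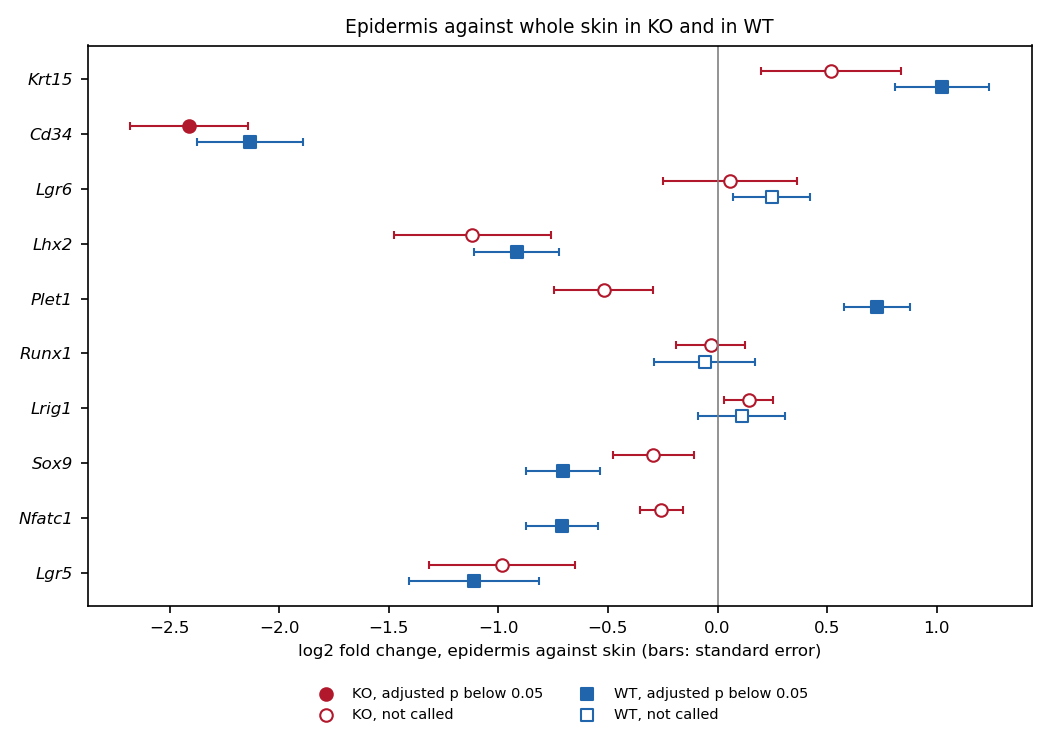
Log2 fold change of epidermis against whole skin (horizontal axis, bars are the standard error) for each of the 10 genes in Adam17 KO (circles) and WT (squares), filled where the adjusted p was below 0.05. Cd34 lies lowest in both genotypes, at −2.41 and −2.13, and Plet1 lies at −0.52 in KO and 0.73 in WT.

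By TPM, which allow levels of different genes to be ordered, Krt15 was the most abundant of the 10 in all 4 groups, at 454.5 ± 22.9 TPM in Skin Adam17 KO, 3568 ± 535 in Skin WT, 485 ± 253 in Epidermis Adam17 KO and 5194 ± 645 in Epidermis WT (SD, n = 3 each). In Skin Adam17 KO it was followed by Plet1 at 232 TPM and Lrig1 at 37.1 TPM, each apart from its neighbours, and then by Cd34 at 19.8 and Nfatc1 at 14.1 TPM, which overlapped. In Skin WT the gene after Krt15 was Cd34 at 111 TPM, followed by Plet1 and Lrig1, which overlapped at 35.0 and 33.2 TPM. Runx1 closed that order at 2.11 TPM, overlapping Lgr5 at 2.82 TPM. In Epidermis Adam17 KO the order was Krt15, Plet1 at 118 TPM and Lrig1 at 32.6 TPM, then a run of overlapping neighbours from Nfatc1 at 8.43 TPM through Runx1, Lgr6, Sox9 and Lhx2 to Cd34 at 2.69 TPM, with Lgr5 last at 0.863 TPM. In Epidermis WT the neighbours from Plet1 at 40.4 TPM through Lrig1, Cd34, Lgr6 and Nfatc1 to Lhx2 at 6.39 TPM overlapped, and Sox9, Runx1 and Lgr5 followed apart, at 4.39, 1.77 and 0.97 TPM. Between the groups, each gene's own order in CPM differed. For Krt15 Epidermis WT was above Skin WT, and the Epidermis Adam17 KO and Skin Adam17 KO ranges overlapped below both. For Runx1 the 2 KO groups overlapped above the 2 WT groups, which overlapped as well.

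Genes of the same structures that are not among the 10 were read as lists. Over all genes tested, 22.2% were called higher and 23.3% lower in Skin Adam17 KO, and 26.2% higher and 25.3% lower in Epidermis Adam17 KO. The counts of each list below stand beside these shares, and some are near them. Of 22 other bulge and stem cell genes, 2 were higher and 9 lower in Skin Adam17 KO, with a median log2 fold change of −0.20. Fgf18, a growth factor of resting follicles, was at −2.43 (2.08 CPM in Skin Adam17 KO and 12.03 CPM in Skin WT, adjusted p = 0.00118). Col17a1, the hemidesmosome collagen that keeps stem cells in place, was at −1.25 (603 CPM in Skin Adam17 KO and 1535 CPM in Skin WT, adjusted p = 0.00216), and Tcf7l1, a bulge transcription factor, at −1.31 (adjusted p = 0.00534). Vdr, the vitamin D receptor, went the other way at 0.90 (adjusted p = 0.00478). In epidermis 21 of the 22 were tested, and 5 were higher and 9 lower, with a median of −0.33. Col17a1 was at −1.86 there (adjusted p = 0.000554), the activin inhibitor Fst at −1.32 (adjusted p = 0.000661), the transcription factor Nfib at −0.87 (adjusted p = 0.000697) and the cytokine receptor Il31ra at −3.63 (adjusted p = 0.000895). Cd200, a further bulge surface marker, named here after its values were seen, was not called in skin (−0.15, adjusted p = 0.439) and was higher in Epidermis Adam17 KO (0.52, adjusted p = 0.0165). More genes of the list fell than rose in both tissues, and 11 in skin and 7 in epidermis passed in neither direction.

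Of 13 upper follicle and infundibulum genes, 6 were higher and 2 lower in Skin Adam17 KO (median 0.27), and 4 were higher and 4 lower in Epidermis Adam17 KO (median 0.05). The kallikrein gene Klk10 rose in both, at 3.46 in skin (adjusted p = 0.00112) and 2.95 in epidermis (adjusted p = 6.99e-05), and so did the defensin gene Defb6, at 2.001 in skin (adjusted p = 0.000402) and 1.54 in epidermis (adjusted p = 0.000286). Krt79, a keratin of the infundibulum, averaged 2141 CPM in Skin Adam17 KO and 780 CPM in Skin WT, at 1.55 (adjusted p = 0.00179). It also rose in epidermis, at 1.14 (adjusted p = 0.000998). The death receptor gene Fas fell in both, at −0.71 in skin (adjusted p = 0.0116) and −1.36 in epidermis (adjusted p = 0.000241). In each tissue 5 of the 13 passed in neither direction.

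Of 17 growing follicle matrix and root sheath genes 16 were tested. In skin 5 were higher and 1 lower (median 2.87), and in epidermis 3 were higher and 1 lower (median 0.92). Gata3, a factor of the inner root sheath that interfollicular cells also use, fell in both, at −1.60 in skin (adjusted p = 0.00173) and −1.52 in epidermis (adjusted p = 0.000252). Foxn1, a factor of hair keratinization, rose in both, at 1.26 (adjusted p = 0.0101) and 0.63 (adjusted p = 0.00359). Lef1, a Wnt-dependent factor of the hair matrix, was at 3.01 in skin (5.46 ± 4.48 CPM in Skin Adam17 KO and 0.728 ± 0.396 CPM in Skin WT, SD, n = 3 each, adjusted p = 0.0117). The wide spread in Skin Adam17 KO stands beside the 394 to 5138 CPM that this list summed to in the 3 libraries, and the labels give no hair cycle stage. Krt15, Cd34, Plet1 and Runx1 kept their calls when any 1 of these 3 libraries was left out.

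**Figure D4:**
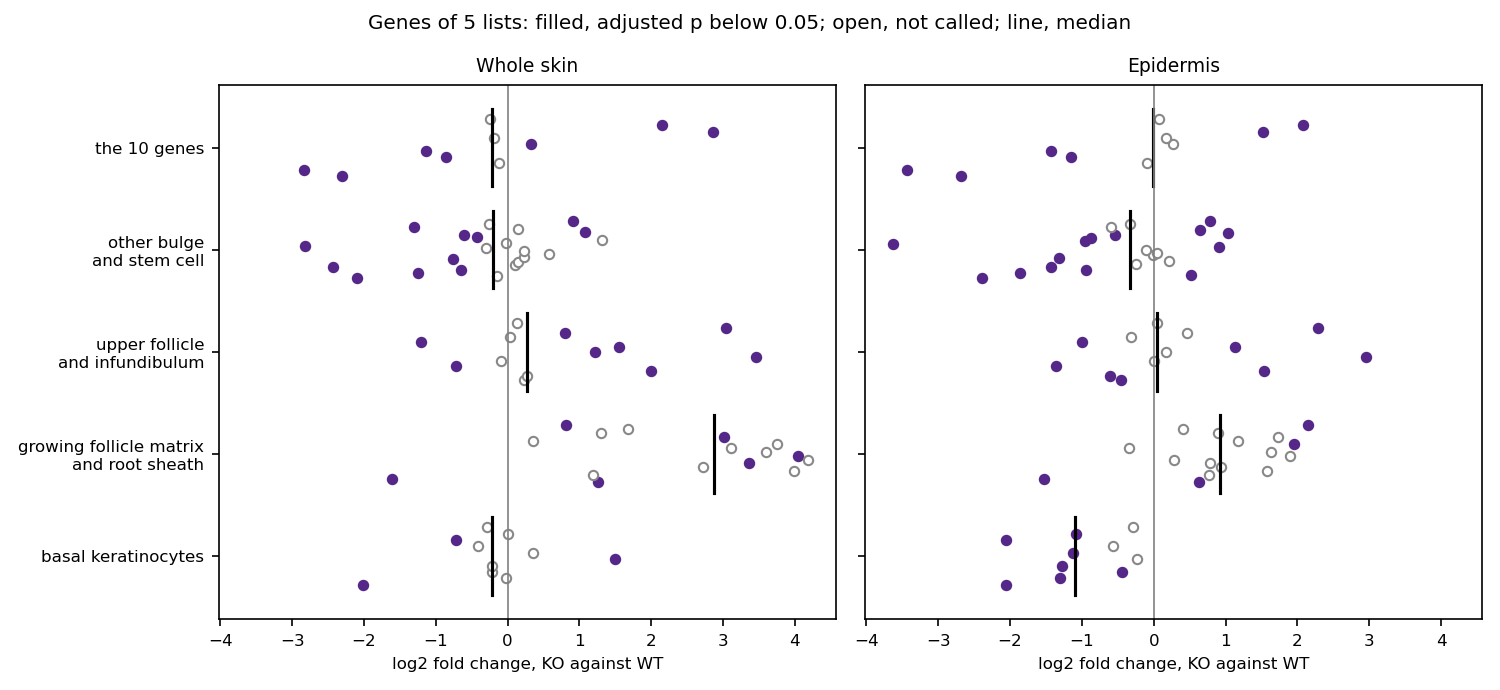
Log2 fold change of Adam17 KO against WT (horizontal axis) for the genes tested of 5 lists (rows) in whole skin and in epidermis, filled where the adjusted p was below 0.05, with the list's median as a line. The growing follicle list has its median at 2.87 in skin and 0.92 in epidermis, and the basal keratinocyte list at −0.22 in skin and −1.10 in epidermis.

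For each of the 10 genes, the other genes whose level followed it most closely over the 12 libraries were found by the root mean square difference of centred log2(CPM + 1) among 14095 genes with a mean of at least 1 CPM. This is a description, in which tissue and genotype are shared by all genes. Tgm7, a transglutaminase gene, was nearest to Krt15 with a difference of 0.315, at 0.203 CPM in Skin Adam17 KO, 7.56 in Skin WT, 1.02 in Epidermis Adam17 KO and 15.5 in Epidermis WT. Rspo3, which encodes an R-spondin, came next at 0.381, with 0.472 CPM in Skin Adam17 KO, 11.03 in Skin WT, 0.586 in Epidermis Adam17 KO and 17.3 in Epidermis WT. Tgm7 and Rspo3 stood near or below 1 CPM in the KO groups, where the 1 CPM added before the log2 narrows differences. Their small distances to Krt15 thus do not mean fold changes of the same size. The nearest to Plet1 were Mdfi at 0.255 and the water and glycerol channel gene Aqp3 at 0.279, with Aqp3 at 700.2 CPM in Skin Adam17 KO, 122 in Skin WT, 567 in Epidermis Adam17 KO and 175 in Epidermis WT. Lgr5 was followed most closely by its own relative Lgr4 (0.231) and the Wnt receptor gene Fzd2 (0.244), and Lgr6 by the Wnt inhibitor gene Apcdd1 (0.202) and Gm15411 (0.202). Cd34 was nearest to the basement membrane collagen gene Col4a2 (0.441) and Wfdc3 (0.481), the widest distances among the 10. Lhx2 was nearest to Mras (0.221) and the oxytocin receptor gene Oxtr (0.224), and the bacterial sensor gene Nod2 (0.221) was near Runx1. Of the remaining members, the nearest were Invs (0.132) and Impad1 (0.14) for Sox9, Extl3 (0.0964) and Ap2a2 (0.102) for Nfatc1, and Carm1 (0.0789) and Ccar2 (0.102) for Lrig1.

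RSEM also gives a mean transcript length, weighted by the estimated abundance of each transcript, and Runx1, which has promoters far apart, was the member read for it. Its length was 5235 to 5480 bases in Skin Adam17 KO, 5531 to 5806 in Skin WT, 3990 to 4462 in Epidermis Adam17 KO and 3835 to 4723 in Epidermis WT. The ranges of the 2 tissues did not overlap in either genotype, while KO and WT overlapped in epidermis and did not overlap in skin, where KO was shorter. These lengths are estimates and were not tested.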

How the data were processed

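Poly(A) RNA libraries (TruSeq Stranded mRNA) of whole skin and epidermis were grouped by sample title. The authors deposited expected counts per gene estimated by RSEM, after STAR 2.5.1 alignment to mm10 and bcl2fastq 2.17 base calling, per the submitters' processing notes, together with TPM values and transcript lengths, per the file headers. The annotation release behind the counts is not given in the sources used here. Multiply mapped reads are shared by RSEM between similar genes, and 8.42% to 9.98% of values per library were not whole.

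IDs were matched to GENCODE M21 symbols (47224 of 47643). Expected counts were rounded and tested with edgeR 4.0.16 in R 4.3.3 (TMM, default filter, quasi-likelihood test, Benjamini-Hochberg adjustment, threshold 0.05), in the 6 libraries of each comparison, and in all 12 for the difference of effects. Fold changes come from those fits, and printed CPM from TMM over all 12 libraries. Standard errors are the log2 fold change over the square root of F, and 95% intervals use the degrees of freedom of the test. The procedure was tested on simulated data, with equal numbers of genes raised and lowered and the same spread set for all genes. Those data do not hold the differences in composition between these libraries, so the test does not cover them. Counts of replicates differed by more than sampling noise, with chi-square values per degree of freedom between 12.4 and 166.

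In skin, same-numbered KO and WT libraries deviated together (correlations 0.341, 0.362 and 0.203), so the numbers were tried as a pairing in an alternative fit with a block. The main fits have no block, and their p-values, standard errors and intervals treat the libraries as unpaired. The labels do not state such pairing, which rests on these correlations, and KO replicate 1 also correlated with WT replicate 3 (0.117). The blocked fit changed only the call of Lrig1 among the members called in skin.

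The members and lists were chosen with earlier results of these data known. Named were the 10 members, Adam17, per follicle or keratinocyte list up to 4 genes of smallest adjusted p, and per member the 2 genes nearest in pattern. Some genes that this rule selects are not reported here. Alternatives were RLE factors, scaling to 10 epithelial genes, no filter, DESeq2 1.42.0, limma-voom 3.58.1, the replicate block, Y-linked reads as a covariate, 1 fit of all 12 libraries, and leaving out libraries. FPKM was not used.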

Additional observations from a re-analysis of the deposited data

Results flagged for a closer look

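Plet1 was flagged because its genotype effect differed between the tissues. The effect in epidermis minus the effect in skin was −1.27 on the log2 scale (SE 0.281, adjusted p = 0.013, edgeR's quasi-likelihood test in 1 model of all 12 libraries). Plet1 was higher in 3 of 3 Adam17 KO libraries than in every WT library in each tissue. Its mean was 180 CPM in Epidermis Adam17 KO and 63.6 CPM in Epidermis WT, and 257 CPM in Skin Adam17 KO and 37.7 CPM in Skin WT. Over the 19 alternatives the difference ran from −1.55 to −0.997, with adjusted p from 0.000561 to 0.0574.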

How the results depend on the processing

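Over 750 recomputed values of the 50 member results, 661 kept direction and side of the threshold, 27 lost and 18 gained a call, 1 called value reversed and 43 values that were called in neither setting changed sign. Krt15, Cd34, Plet1 and Runx1 kept their calls in every alternative of both genotype comparisons. The reversed value is that of Lrig1 in skin (−0.0164 with the epithelial scaling). Lrig1 also lost its skin call in 10 of 15 alternatives. Without the Skin Adam17 KO libraries that hold Y-linked reads, a lone KO library is assumed to vary like the WT libraries, and 2658 genes and 4 members were called in skin, beside 6780 and 7. With Y-linked reads as a covariate 4540 genes were called in epidermis, beside 7014. For Epidermis Adam17 KO against Skin Adam17 KO, members called were 1 in the main analysis, 2 with no filter, with limma-voom and with 1 fit of all 12 libraries, 4 with DESeq2, 6 with the epithelial scaling, and 1 to 2 when single libraries were left out. Genes called there numbered 4227, against 2328 to 3561 without single libraries, the lowest without Skin Adam17 KO replicate 3. For the difference of genotype effects, 2539 genes and 1 member were called, against 1397 to 3940 genes and 1 to 2 members without single libraries. The gene counts moved by over 1.5 times without Skin WT replicate 1 (3940) or 3 (1436), Skin Adam17 KO replicate 2 (1397), Epidermis WT replicate 3 (1581) or Epidermis Adam17 KO replicate 2 (1412). Without Skin WT replicate 1, Nfatc1 was the added member (0.54, adjusted p = 0.0468). The cause of these shifts was not tested.

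The replicate numbers used as a block lowered the count of genes in Epidermis Adam17 KO against Skin Adam17 KO to 2805. Same-numbered libraries did not all deviate together there (correlations −0.0391, 0.0166 and −0.0413). The same held in Epidermis Adam17 KO against Epidermis WT (0.0776, 0.127 and −0.0752) and in Epidermis WT against Skin WT (−0.0962, 0.0438 and −0.235). The labels do not say whether same-numbered libraries share mice, and these correlations cannot settle it. The block changed no call of a member other than that of Lrig1 in skin. With 3 libraries a group, Lgr5, at 30 to 207 expected counts, is the member where depth limits precision most.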
